A study of Mus musculus with 4 samples.

Results

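The genes described here make cholesterol and fatty acids, or control and transport what is made. They were chosen by name from a list of 34 genes, with 19 enzymes of the sterol branch, 9 genes of the fatty acid branch, 5 regulators and the sterol transfer gene Stard4. A gene counted as measured where a probe set of the array was annotated to it alone, which held for 31 of the 34, among 22180 genes with a value. Idi1 and Scd2 were annotated only together with another gene and are not analysed here, and neither is Acat2. The 31 genes were 17 sterol enzymes, 8 fatty acid genes, the 5 regulators and Stard4. No member fell under a log2 signal of 8.17 on any array, well above the limit of log2 6 that 18310 of all genes reached on 1 or more arrays. Differences below are set beside those of these 18310 genes.

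The RNA came from P19 cells, an embryonal carcinoma line of the mouse whose cells leave the stem-like state in retinoic acid, and each of 4 groups had 1 array. The first group was the Ctcfl line in 10 µM retinoic acid for 4 days, and the second was wild-type P19 cells under the same treatment. The other groups were the Ctcfl line and wild-type cells kept undifferentiated with the ethanol vehicle. The Ctcfl line is a single clone with stable copies of pBI-EGFP-FLAG-mCtcfl and pTA-N, in which mouse Ctcfl, a testis paralog of the insulator protein Ctcf, is switched on when doxycycline is withdrawn (Tet-Off). Doxycycline had been withdrawn from both Ctcfl-line cultures for 2 days. For wild-type cells one label gives 2 µg/ml doxycycline and another gives ordinary medium, so the line comparison joins Ctcfl, vectors, clonal origin and possibly doxycycline. The Ctcfl probe set had a log2 signal of 9.56 in the Ctcfl line and 7.13 in wild-type cells in retinoic acid, and of 10.41 in the Ctcfl line and 7.86 in wild-type cells without it.

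Cells build cholesterol from acetyl-CoA through mevalonate, farnesyl diphosphate and squalene, and the same acetyl-CoA feeds fatty acid synthesis. Both branches are under the SREBP transcription factors, which Srebf1 and Srebf2 encode. When sterols are plentiful, the Insig proteins hold the escort protein Scap, and SREBP with it, in the endoplasmic reticulum. When sterols are scarce, Scap carries SREBP to the Golgi, where it is cut and released to act on its target genes, Insig1 among them. Srebf1 products act mostly on fatty acid genes and Srebf2 products mostly on sterol genes.

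No member passed the test that averages retinoic acid over the lines, or the one that averages the line over the states. That test was a two-sided limma fit in which treatment and line were additive, adjusted by Benjamini-Hochberg over all 18310 genes at a threshold of 0.05. For retinoic acid 0 of 31 members passed, against 6.65% of all genes (4.21% higher and 2.44% lower), and 6 had an unadjusted p under 0.05, against 23.5% of all genes. For the line 0 of 31 passed, against 0.0437% of all genes (0.0273% higher and 0.0164% lower), and 5 had an unadjusted p under 0.05, against 9.81%. With 1 array per group the fit takes any difference between lines or states in a response as error, so a member that moved in 1 line or state alone could hardly pass. Such differences are given below without a test. As a guide to technical error, probe sets of the same gene differed in a log2 difference with an SD of 0.33 for retinoic acid in the Ctcfl line and 0.30 in wild-type cells. For the Ctcfl line against wild type that SD was 0.23 in retinoic acid and 0.26 in undifferentiated cells. It came from 874 genes and holds no spread between cultures. Probe sets of a gene can also read different transcripts, so this SD, called technical SD below, is not array error alone. It serves only as a rough limit.

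No member reached a 2-fold difference with retinoic acid. In the Ctcfl line 0 of 31 members were at least 2-fold higher, against 3.21% of all genes, and 0 were at least 2-fold lower, against 1.5%. In wild-type cells the counts were again 0 and 0, against 2.58% and 2.62% of all genes. Between the lines in retinoic acid, 0 of 31 were at least 2-fold higher in the Ctcfl line, against 0.830%, and 1, Insig1, was at least 2-fold lower, against 0.399%. In undifferentiated cells 1 member, Ebp, was at least 2-fold higher in the Ctcfl line, against 0.726%, and 0 were at least 2-fold lower, against 1.09%. Set against each other, the responses of the lines were 2-fold or more apart in 0 members in either direction, against 1.90% of all genes with the higher and 0.754% with the lower response in the Ctcfl line.

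Smaller limits were reached by a few members, and each count is to be read against the share of all genes beside it. At 1.5-fold, 1 member (Fads1) was higher with retinoic acid in the Ctcfl line, against 9.0% of all genes, and 0 were lower, against 6.12%. In wild-type cells 3 (Hsd17b7, Sc5d and Fads2) were higher, against 7.40%, and 0 lower, against 7.03%. In the Ctcfl line relative to wild type, 0 were higher in retinoic acid, against 3.41%, and 3 of 31 (Insig1, Hmgcs1 and Scd1) were lower, against 1.97%. In undifferentiated cells 3 (Ebp, Hsd17b7 and Sqle) were higher, against 3.80%, and 1 (Insig1) was lower, against 5.10%. The response was lower in the Ctcfl line by 1.5-fold or more in 5 members (Hsd17b7, Hmgcs1, Ebp, Sqle and Scd1), against 4.73%, and higher in 0, against 7.64%. A limit of 2 technical SD gave the same members in the first 3 of these comparisons. There the shares of all genes were 7.29% higher and 4.33% lower for retinoic acid in the Ctcfl line, 6.98% and 6.59% in wild type, and 6.01% and 4.47% for the line in retinoic acid. For the line in undifferentiated cells that limit added Fdps to the lower ones, with 5.04% of all genes higher and 6.58% lower. For the difference of responses it left out Scd1, with 6.31% of all genes higher and 3.52% lower.

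**Figure D1:**
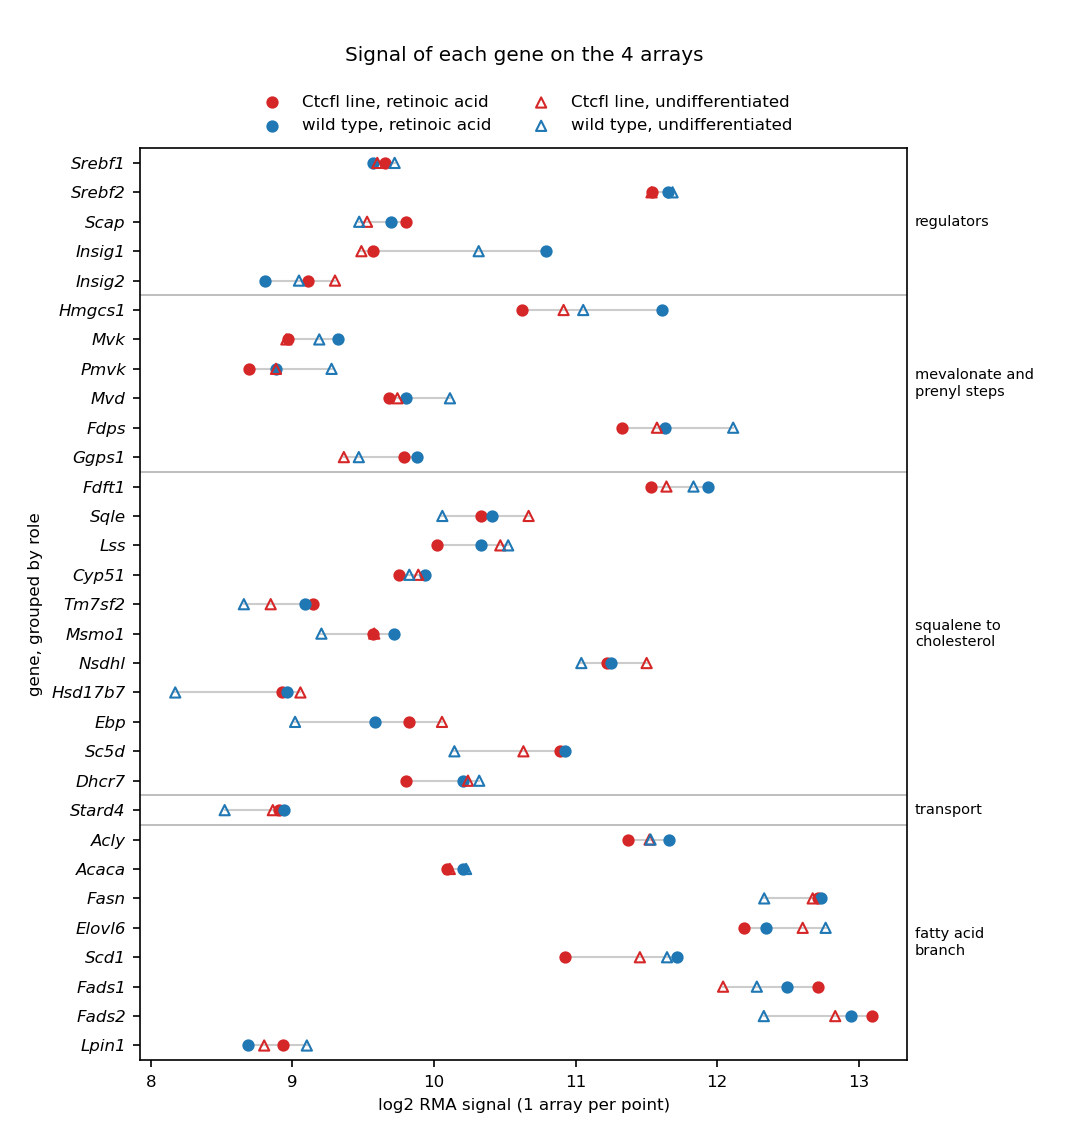
Log2 RMA signal of the 31 genes (rows, grouped by role) on the 4 arrays, 1 point per array; the grey line joins the lowest and the highest array of a gene. Insig1, Hmgcs1, Ebp and Hsd17b7 spread most, over log2 1.31, 0.99, 1.04 and 0.88, and signals of different genes are not comparable with each other.

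Promoters are shown for Insig1 and, among the genes with a window, for the early and late sterol and fatty acid members with the widest ranges over the arrays, to compare the DNA that SREBP and its partner NF-Y could read. RefSeq promoter windows of 300 bases, from 250 before to 50 after the start site on GRCm38.p6, were found for 25 of the 31 genes; those not found were Fdps, Fdft1, Sqle, Stard4, Scd1 and Fads1. Printed are the 250 bases before the start site, 5′ to 3′ on the strand of the gene. Capitals mark the sterol regulatory element TCACNCCAC and the NF-Y motif CCAAT, each read on either strand.
Insig1, chr5:28071162-28071411, plus strand: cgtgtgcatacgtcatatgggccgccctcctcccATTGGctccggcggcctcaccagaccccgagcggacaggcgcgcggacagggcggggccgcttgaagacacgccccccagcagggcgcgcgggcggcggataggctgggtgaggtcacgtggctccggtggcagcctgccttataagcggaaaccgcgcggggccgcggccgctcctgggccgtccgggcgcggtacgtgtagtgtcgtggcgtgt
Hmgcs1, chr13:119690101-119690350, plus strand: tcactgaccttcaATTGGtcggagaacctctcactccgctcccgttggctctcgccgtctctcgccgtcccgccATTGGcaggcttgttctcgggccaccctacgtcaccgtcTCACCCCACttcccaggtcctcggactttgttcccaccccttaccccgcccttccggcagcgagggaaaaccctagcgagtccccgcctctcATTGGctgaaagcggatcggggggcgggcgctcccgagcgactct
Hsd17b7, chr1:169969206-169969455, minus strand: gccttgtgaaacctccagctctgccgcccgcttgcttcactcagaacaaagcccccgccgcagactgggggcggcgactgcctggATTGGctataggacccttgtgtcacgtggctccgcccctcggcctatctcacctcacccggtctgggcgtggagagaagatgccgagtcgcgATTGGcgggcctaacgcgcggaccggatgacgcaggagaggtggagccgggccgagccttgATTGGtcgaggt
Ebp, chrX:8193513-8193762, minus strand: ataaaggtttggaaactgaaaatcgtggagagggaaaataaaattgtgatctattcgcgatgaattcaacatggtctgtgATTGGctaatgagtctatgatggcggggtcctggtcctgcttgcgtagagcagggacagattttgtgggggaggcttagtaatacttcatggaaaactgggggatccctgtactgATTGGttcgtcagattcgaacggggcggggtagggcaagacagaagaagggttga
Fads2, chr19:10101504-10101753, minus strand: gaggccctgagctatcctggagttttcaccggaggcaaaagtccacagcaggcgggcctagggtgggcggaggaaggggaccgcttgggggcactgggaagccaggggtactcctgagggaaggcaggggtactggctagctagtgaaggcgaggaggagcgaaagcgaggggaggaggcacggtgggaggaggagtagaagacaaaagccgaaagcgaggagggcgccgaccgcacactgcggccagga
Hmgcs1 was the single member with TCACNCCAC in its window, with its first base at position -137 from the start site. That is 1 of 25 members, against 212 of the 14149 genes past the signal limit that have a window. CCAAT was in a window of 20 of 25 members (80.0%), against 41.5% of those genes. A gene can have several windows and counted if any of them had the motif, and the 25 members had 33 windows. Counted by window, CCAAT was in 63.6% of member windows, against 37.4% of the windows of all genes. Fads2 had no CCAAT, and neither had the windows found for the fatty acid genes Acaca, Elovl6 and Lpin1 or the regulator Scap. The Acaca window starts at 84195188, inside a plus-strand gene that starts at 84129635. The Lpin1 window ends at 16611216, inside a minus-strand gene whose outer end is at 16653903. For these 2 genes the DNA before the outer gene start was not searched. The GC box GGGCGG, read on both strands, was in a window of 19 of 25 members (76.0%), against 57.8%. The E-box CACGTG was in a window of 5 of 25 members (20.0%), against 10.3%; these were Dhcr7, Hsd17b7, Insig1, Sc5d and Scap. No matches of different motifs shared a base in these windows. The median GC content was 62.3% in member windows and 58.7% in those of the genes past the limit. A match describes letters and does not show binding.

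Among the regulators, Insig1 differed between the lines in both states. In retinoic acid Insig1 had a log2 signal of 9.57 in the Ctcfl line and 10.79 in wild-type cells. In undifferentiated cells it had 9.49 in the Ctcfl line and 10.32 in wild-type cells. Both arrays of the Ctcfl line thus lay below both of wild type, 2.34-fold with retinoic acid and 1.78-fold without it. In limma the line effect was log2 -1.03 ± 0.17 (SE), lower in 2 of 2 states, with an unadjusted p of 0.000609 and an adjusted p of 0.195, which did not pass. Over the 5 alternative settings the adjusted p lay between 0.124 and 0.259. Insig2, which encodes the other Insig protein and is not driven by SREBP in the same way, stood slightly higher in the Ctcfl line. Its log2 signals were 9.11 in the Ctcfl line and 8.81 in wild-type cells in retinoic acid, and 9.30 in the Ctcfl line and 9.05 in wild-type cells without it. Those differences, log2 0.31 and 0.25, lie within 2 technical SD, and the line effect did not pass (adjusted p = 0.592 in limma).

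The transcription factor genes themselves spanned at most log2 0.15 over the arrays. Srebf2 lay between log2 11.54 and 11.69 on the 4 arrays, and Srebf1 between 9.57 and 9.72. Scap, the escort, had a log2 signal of 9.80 in the Ctcfl line and 9.70 in wild-type cells in retinoic acid, and of 9.53 in the Ctcfl line and 9.47 in wild-type cells without it. It was thus higher with retinoic acid in both lines, by log2 0.28 and 0.22 for the Ctcfl line and wild type (limma adjusted p = 0.353). A second, dimmer probe set of Scap gave log2 0.11 in the Ctcfl line and -0.15 in wild-type cells for the same comparison, so the probe sets disagree on direction in wild type. Scap was the single member with more than 1 probe set.

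The early steps, from HMG-CoA to the prenyl diphosphates, were lower in the Ctcfl line in each of the 6 genes measured. Their median difference from wild type was log2 -0.25 in retinoic acid and -0.30 in undifferentiated cells, against -0.02 over all genes in both states. Over all genes 53.9% lay below 0 in retinoic acid and 53.1% in undifferentiated cells. Among the 6 early genes, only Hmgcs1 in retinoic acid and Fdps in undifferentiated cells lay beyond 2 technical SD. The count stayed at 6 of 6 in both states with quantile normalization. The other filters and the mean of probe sets could not change these values. The division of the sterol branch into early and late steps was made after values were seen.

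Hmgcs1, HMG-CoA synthase, carried the largest early difference. In retinoic acid it had a log2 signal of 10.62 in the Ctcfl line and 11.61 in wild-type cells. Undifferentiated cells had 10.91 in the Ctcfl line and 11.05 in wild type. The gene was 1.99-fold lower in the Ctcfl line in retinoic acid and 1.10-fold lower without it, and the wild-type array in retinoic acid was the highest of the 4. Its response to retinoic acid was log2 -0.29 in the Ctcfl line and 0.56 in wild-type cells. Fdps, which makes farnesyl diphosphate, had log2 signals of 11.33 in the Ctcfl line and 11.63 in wild-type cells in retinoic acid. Without retinoic acid Fdps had 11.57 in the Ctcfl line and 12.11 in wild-type cells, so that the undifferentiated wild-type array was the highest. The line effects of Hmgcs1 (log2 -0.57 ± 0.22, SE) and Fdps (log2 -0.42 ± 0.15) had unadjusted p of 0.0412 and 0.0316 and adjusted p of 0.487 and 0.464 in limma. Each was lower in 2 of 2 states, with both arrays of the Ctcfl line below both of wild type.

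The kinases Mvk and Pmvk and the decarboxylase Mvd, which take mevalonate to isopentenyl diphosphate, differed less. In the Ctcfl line they were lower than in wild type by log2 values between -0.36 (Mvk) and -0.12 (Mvd) in retinoic acid, and between -0.39 (Pmvk) and -0.23 (Mvk) in undifferentiated cells. Ggps1, which makes geranylgeranyl diphosphate for protein prenylation and so leaves the sterol route, followed retinoic acid instead of the line. In retinoic acid Ggps1 had log2 signals of 9.79 in the Ctcfl line and 9.88 in wild-type cells, and without it 9.36 in the Ctcfl line and 9.47 in wild-type cells. Both retinoic acid arrays lay above both undifferentiated ones, by log2 0.42 in the Ctcfl line and 0.41 in wild type. The effect of log2 0.42 ± 0.15 (SE) had an unadjusted p of 0.0266 and an adjusted p of 0.155 in limma.

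**Figure D2:**
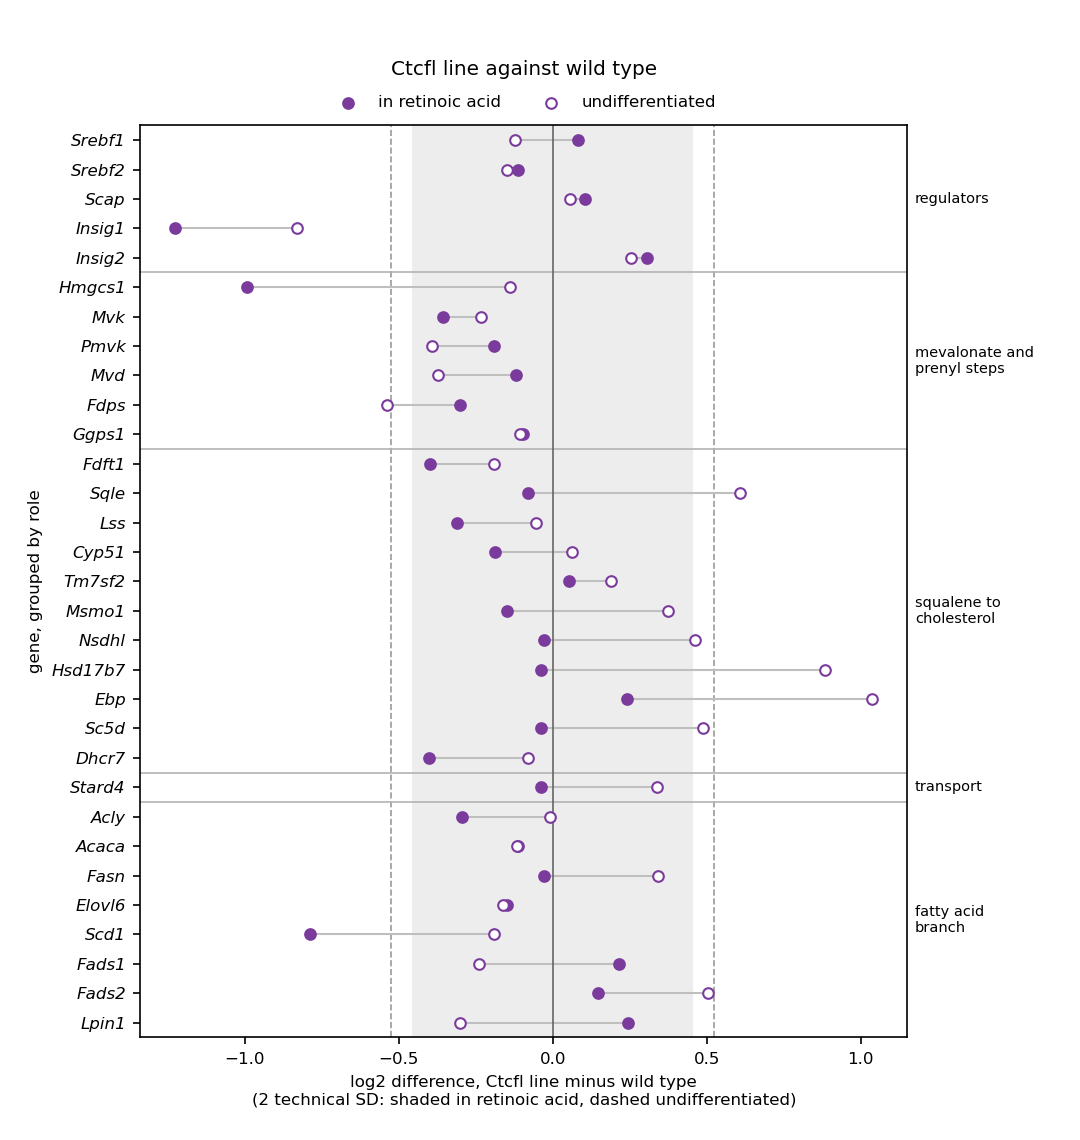
Log2 difference of the Ctcfl line minus wild type for each gene, in retinoic acid (filled) and undifferentiated (open); the shaded band is 2 technical SD in retinoic acid (log2 0.45 to either side) and the dashed lines are 2 technical SD in undifferentiated cells (0.52). Insig1 lies beyond its limit on the left in both states, Hmgcs1 and Scd1 do in retinoic acid and Fdps in undifferentiated cells, the 6 early genes lie left of 0 in both, and Ebp, Hsd17b7 and Sqle lie right of the dashed line in undifferentiated cells.

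The late steps, from squalene synthase to cholesterol, had another pattern. In undifferentiated cells 8 of these 11 genes were higher in the Ctcfl line than in wild type, against 46.8% of all genes. Their median was log2 0.37, against -0.02 over all genes. In retinoic acid 9 of the 11 were lower, against 53.9% of all genes, with a median of log2 -0.08, against -0.02. Retinoic acid went with lower signals in 9 of 11 genes in the Ctcfl line (median log2 -0.14) and with higher signals in 9 of 11 in wild-type cells (median 0.35). Over all genes 55.7% were lower in the Ctcfl line and 45.3% higher in wild type, and the medians were log2 -0.05 in the Ctcfl line and -0.04 in wild type. The difference of the responses, Ctcfl line minus wild type, was below 0 in 11 of 11 genes with a median of log2 -0.49, against 51.3% of all genes and a median of -0.01. The 11 of 11 held with quantile normalization. The other filters and the mean of probe sets could not change these values.

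These numbers share 1 array. The undifferentiated wild-type array was the lowest of the 4 for 7 of the 11 late genes. Both the response of wild-type cells and the line difference in undifferentiated cells are measured against that array. How often it was the lowest or the highest over all genes was not counted. The 2 comparisons without it, retinoic acid in the Ctcfl line and the lines in retinoic acid, had medians of log2 -0.14 and -0.08. On that array the olfactory receptor genes, a guide to background, had a median of log2 4.78, against 4.68 to 4.69 on the other arrays. The median over all probe sets was log2 6.96 on that array, against 6.95 to 6.96 on the others. Whether the array or the culture gave the low values cannot be told apart. For the early genes that array was the highest of the 4 in 3 of 6 and the lowest in 0. The early and late groups were divided after values were seen, and the contrast between them was not tested.

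Ebp, a sterol isomerase, differed most among the late genes. It had log2 signals of 9.82 in the Ctcfl line and 9.58 in wild-type cells in retinoic acid, and of 10.06 in the Ctcfl line and 9.02 in wild-type cells without it. The undifferentiated wild-type value stood alone at the low end, so that Ebp was 2.05-fold higher in the Ctcfl line there and 1.18-fold higher in retinoic acid. With quantile normalization the larger difference was just under 2-fold. Its line effect in limma was log2 0.64 ± 0.21 (SE), higher in 2 of 2 states, with an unadjusted p of 0.0222 and an adjusted p of 0.431. Hsd17b7, a reductase that acts as the sterol methyl groups are removed, had 8.93 in the Ctcfl line and 8.96 in wild-type cells in retinoic acid. Without retinoic acid Hsd17b7 had 9.06 in the Ctcfl line and 8.17 in wild-type cells. Its other arrays were thus within log2 0.13 of each other, and the undifferentiated wild-type array was 1.85-fold below that of the Ctcfl line.

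Sqle, squalene epoxidase, a rate-limiting enzyme of the late route, had log2 signals of 10.33 in the Ctcfl line and 10.41 in wild-type cells in retinoic acid. Without it Sqle had 10.67 in the Ctcfl line and 10.06 in wild-type cells, a 1.53-fold difference. Its response was log2 -0.34 in the Ctcfl line and 0.35 in wild-type cells, and the mean effect over lines was close to 0 (log2 0.01, adjusted p = 0.991 in limma). Sc5d, a sterol desaturase, had 10.89 in the Ctcfl line and 10.92 in wild-type cells in retinoic acid, and 10.63 in the Ctcfl line and 10.14 in wild-type cells without it. Both of its retinoic acid arrays lay above both undifferentiated ones, by log2 0.26 in the Ctcfl line and 0.78 in wild type. That effect, log2 0.52 ± 0.18 (SE), higher in 2 of 2 lines, had the lowest adjusted p of any member for retinoic acid, 0.150 in limma, and did not pass. Nsdhl and Msmo1, which act with Hsd17b7 in demethylation at the same carbon, had the same order in undifferentiated cells, higher in the Ctcfl line by log2 0.46 and 0.37. In retinoic acid these differences were log2 -0.03 for Nsdhl and -0.15 for Msmo1. For both genes the line differences lay within 2 technical SD in both states.

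Not all late genes shared that order. Dhcr7, the reductase that completes cholesterol, had log2 signals of 9.80 in the Ctcfl line and 10.21 in wild-type cells in retinoic acid, and of 10.24 in the Ctcfl line and 10.32 in wild-type cells without it. Lss, which closes the ring to lanosterol, had 10.02 in the Ctcfl line and 10.33 in wild-type cells in retinoic acid, and 10.47 in the Ctcfl line and 10.52 in wild-type cells without it. For both genes the Ctcfl line in retinoic acid was the lowest array. Fdft1, squalene synthase, was lower in the Ctcfl line by log2 -0.40 in retinoic acid and -0.19 in undifferentiated cells, like the early genes that precede it. Cyp51, lanosterol demethylase, had the narrowest range of the late genes, log2 0.19. Tm7sf2, a sterol reductase, was higher with retinoic acid in both lines, by log2 0.30 in the Ctcfl line and 0.43 in wild-type cells (limma adjusted p = 0.204). Stard4, which carries cholesterol between membranes, had log2 signals of 8.90 in the Ctcfl line and 8.94 in wild-type cells in retinoic acid, and of 8.86 in the Ctcfl line and 8.52 in wild-type cells without it. Its undifferentiated wild-type array was again the lowest, though the line difference there, log2 0.34, lay within 2 technical SD (0.52).

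**Figure D3:**
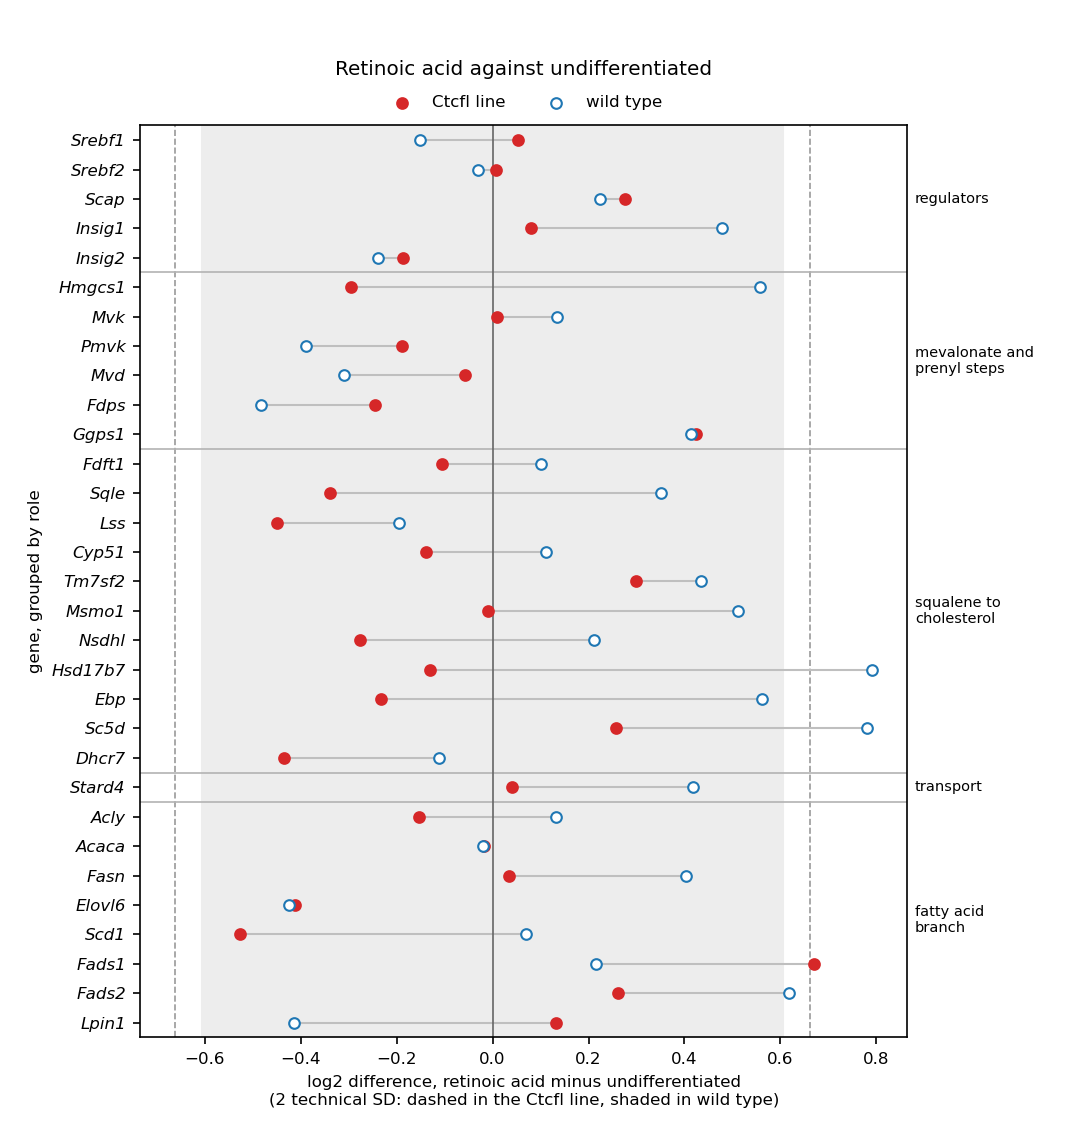
Log2 difference of retinoic acid minus undifferentiated for each gene, in the Ctcfl line (filled) and wild type (open); the dashed lines are 2 technical SD in the Ctcfl line (log2 0.66 to either side) and the shaded band is 2 technical SD in wild type (0.61). Fads1 in the Ctcfl line and Hsd17b7, Sc5d and Fads2 in wild type lie beyond their limits, and all 11 late sterol genes have the open point to the right of the filled one.

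In the fatty acid branch the desaturases of polyunsaturated fatty acids, Fads1 and Fads2, were higher with retinoic acid in both lines. Fads1 had log2 signals of 12.71 in the Ctcfl line and 12.50 in wild-type cells in retinoic acid, and of 12.04 in the Ctcfl line and 12.28 in wild-type cells without it. Fads2 had 13.10 in the Ctcfl line and 12.95 in wild-type cells in retinoic acid, and 12.83 in the Ctcfl line and 12.33 in wild-type cells without it. For each gene both retinoic acid arrays lay above both undifferentiated ones. The effects were log2 0.44 ± 0.17 for Fads1 and 0.44 ± 0.16 for Fads2 (SE), with adjusted p of 0.185 and 0.170 in limma and unadjusted p of 0.0387 and 0.0324. Elovl6, the elongase of saturated fatty acids, went the other way. It had 12.19 in the Ctcfl line and 12.34 in wild-type cells in retinoic acid, and 12.60 in the Ctcfl line and 12.77 in wild-type cells without it. Elovl6 was lower by log2 -0.41 in the Ctcfl line and -0.42 in wild-type cells, with an effect of log2 -0.42 ± 0.15 (SE) and an adjusted p of 0.155 in limma. With a variance prior that follows mean expression the adjusted p was 0.0408, the single setting of 5 under which any member passed.

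Scd1, which makes monounsaturated fatty acids, was lowest in the Ctcfl line in retinoic acid. There it had a log2 signal of 10.93, against 11.72 in wild-type cells in retinoic acid. Undifferentiated cells had 11.45 in the Ctcfl line and 11.65 in wild type. The line difference was thus log2 -0.79 with retinoic acid and -0.19 without it, and the line effect in limma had an unadjusted p of 0.0373 and an adjusted p of 0.476. Fasn, fatty acid synthase, had 12.71 in the Ctcfl line and 12.74 in wild-type cells in retinoic acid. Without it Fasn had 12.67 in the Ctcfl line and 12.33 in wild-type cells. The undifferentiated wild-type array was the lowest, but this line difference of log2 0.34 lay within 2 technical SD (0.52). Acly, which splits citrate to give acetyl-CoA, spanned log2 0.29 over the arrays, and Acaca, acetyl-CoA carboxylase, spanned 0.13, the narrowest range of all 31 genes. Lpin1, a phosphatidate phosphatase of triglyceride synthesis, had 8.93 in the Ctcfl line and 8.69 in wild-type cells in retinoic acid. Without retinoic acid Lpin1 had 8.80 in the Ctcfl line and 9.10 in wild-type cells. It had the largest positive difference of responses of any member, log2 0.55, which lay within 2 technical SD (0.64).

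The branches were then set side by side by their medians. For retinoic acid in the Ctcfl line the median was log2 -0.14 for 17 sterol enzymes and 0.01 for 8 fatty acid genes, and in wild-type cells it was 0.21 for sterol and 0.10 for fatty acid genes. For the Ctcfl line against wild type the medians were log2 -0.15 for sterol and -0.07 for fatty acid genes in retinoic acid, and -0.06 for sterol and -0.14 for fatty acid genes in undifferentiated cells. Sterol minus fatty acid branch was log2 -0.15, 0.11, -0.08 and 0.08 in these 4 comparisons. In undifferentiated cells the sterol median joins early and late steps of opposite sign, and its mean was log2 0.12, of the other sign. The difference of responses had a median of log2 -0.25 in the sterol branch and -0.14 in the fatty acid branch, against -0.01 over all genes. No test was made of either branch, since the genes were chosen by name with earlier results known and are not replicates.

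**Figure D4:**
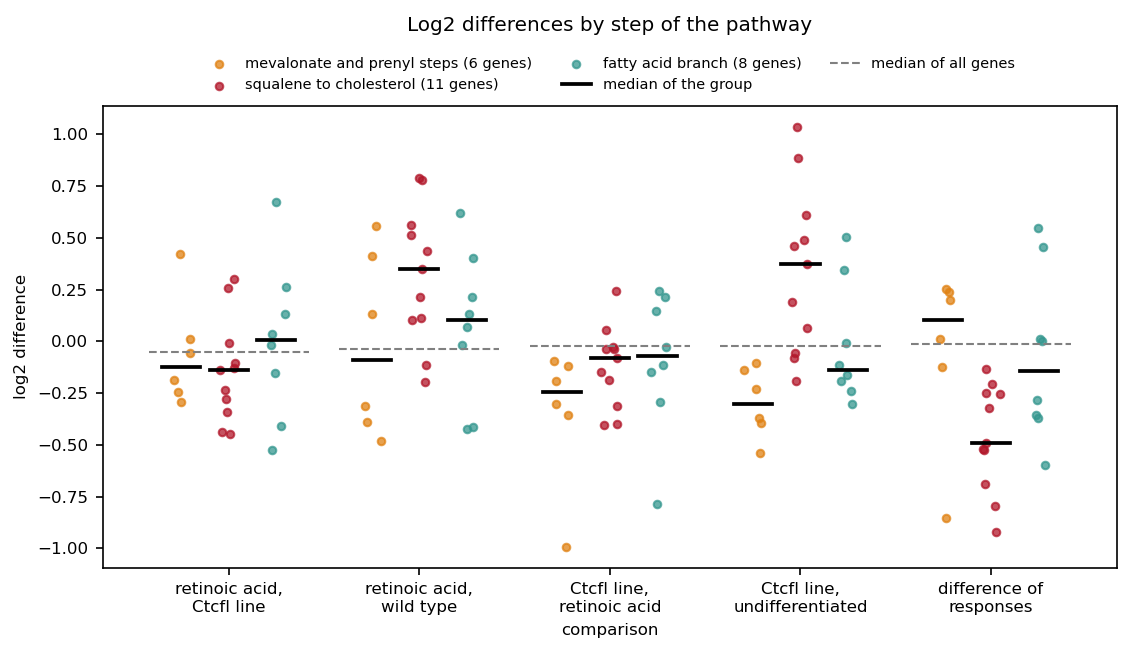
Log2 differences of the early sterol genes, the late sterol genes and the fatty acid genes in each comparison (retinoic acid minus undifferentiated in each line, Ctcfl line minus wild type in each state, and the response of the Ctcfl line minus that of wild type); each point is a gene, black bars are group medians and dashed lines the median of all 18310 genes. Late sterol genes have medians of 0.35 and 0.37 where the undifferentiated wild-type array is the base, and of -0.14 and -0.08 where it is not.

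Other genes of the pathway were counted from lists fixed by name. Of 11 further sterol and isoprenoid genes measured, 0 passed limma in either effect; 2 had an unadjusted p under 0.05 for retinoic acid and 2 for the line, against 23.5% and 9.81% of all genes. Of 34 further genes of fatty acid and glycerolipid synthesis, 0 passed either effect, with 7 and 6 at an unadjusted p under 0.05 for retinoic acid and the line, to be read against the same shares. Their largest line effect was in Fads3, a relative of Fads1 and Fads2, at log2 0.86 (limma adjusted p = 0.305). Of 23 genes of SREBP processing, sterol sensing and transport, 1 rose and 2 fell with retinoic acid, against 4.21% and 2.44% of all genes, 20 did not pass, and 0 passed for the line, where 3 had an unadjusted p under 0.05.

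The 3 that passed move cholesterol across the plasma membrane. Abca1, an exporter of cholesterol to lipoproteins, had log2 signals of 9.69 in the Ctcfl line and 8.98 in wild-type cells in retinoic acid, and of 7.56 in the Ctcfl line and 8.18 in wild-type cells without it. It rose by log2 1.46 ± 0.30 (SE, adjusted p = 0.0402 in limma), higher in 2 of 2 lines, 4.38-fold in the Ctcfl line and 1.73-fold in wild type. Abcg1, a related exporter, had 8.15 in the Ctcfl line and 7.80 in wild-type cells in retinoic acid, and 8.70 in the Ctcfl line and 8.99 in wild-type cells without it. Abcg1 fell by 0.87 on the log2 scale (adjusted p = 0.0497 in limma, lower in 2 of 2 lines). Scarb1, the receptor that takes up cholesterol from high density lipoprotein, had 9.12 in the Ctcfl line and 9.61 in wild-type cells in retinoic acid, and 9.88 in the Ctcfl line and 10.65 in wild-type cells without it. Scarb1 fell by 0.90 on the log2 scale (adjusted p = 0.0245 in limma, lower in 2 of 2 lines). Without the filter on low signals Abca1 and Abcg1 no longer passed (adjusted p = 0.0535 and 0.0638), and with the mean of probe sets Abcg1 did not (0.0541).

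The cells matched their labels in the main markers. Each of 5 retinoic acid response genes measured rose with retinoic acid in limma, and their median was log2 11.63 in the Ctcfl line and 11.55 in wild-type cells, against 7.96 in the Ctcfl line and 7.50 in wild-type cells without it. The median of 8 pluripotency markers was log2 8.82 in the Ctcfl line and 8.28 in wild-type cells in retinoic acid, and 11.60 in the Ctcfl line and 11.22 in wild-type cells without it. Zfp42, a marker of naive stem cells, had the lowest signal of the 8 on 3 arrays and lay between log2 6.12 and 6.46 on all 4. Markers of other cell types also differed between the lines in retinoic acid. Of 8 endoderm markers 7 were lower in the Ctcfl line than in wild type, against 53.9% of all genes, with Lama1 higher by log2 0.45. Their median was log2 8.09 in the Ctcfl line and 8.75 in wild-type cells, with Gata6 at 10.08 in the Ctcfl line and 11.24 in wild-type cells and Ttr at 7.73 in the Ctcfl line and 8.95 in wild-type cells. All 6 mesenchyme and smooth muscle markers were lower in the Ctcfl line, against the same 53.9% of all genes. Their median was log2 8.46 in the Ctcfl line and 8.96 in wild-type cells, with the largest difference in Dcn (log2 -1.83). Of these markers Tagln, Col3a1 and Postn lay within 2 technical SD (log2 0.45), as did the endoderm markers Gata4, Sox17, Foxa2, Afp and Lama1. Of 5 neural markers 2 were higher and 3 lower in the Ctcfl line, and of 8 pluripotency markers 6 were higher and 2 lower, with Nanog higher by log2 1.58. The part of these cell types in the lower Hmgcs1, Scd1 and Insig1 signals of the Ctcfl line was not tested, and in bulk RNA fewer cells of a type and less RNA per cell cannot be told apart. Of 6 adipocyte markers, 4 or 5 reached log2 6 on each array; Adipoq, a defining one, was below log2 6 on all arrays, while Lpl, which other cells also express, lay between 8.75 and 9.42. The adipocyte median was log2 6.15 in the Ctcfl line and 6.54 in wild-type cells in retinoic acid, and 6.50 in the Ctcfl line and 6.70 in wild-type cells without it.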

How the data were processed

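Labelled targets from total RNA of 4 cultures, 1 per group, were hybridised to Affymetrix arrays, 1 array each. Per the labels, the deposited signals are on the log2 scale, summarised by the authors with RMA in Expression Console; Transcriptome Analysis Console is also named in the submitters' processing notes. Versions and build are not given in the sources used here. Of 41345 probe sets in the table, 23521 carried a single gene symbol in the annotation and 1814 several, and 16010 were unnamed here. Where several probe sets named a gene alone, the one with the highest mean stood for it, and genes under log2 6 on every array were left out. No further normalization was applied. Log2 differences were taken between single arrays, and limma 3.58.1 in R 4.3.3 (lmFit and eBayes) gave each effect as a mean over lines or states, with 1 residual degree of freedom per gene and a prior of 5.49. The fit was tested on simulated data in which responses did not differ between lines, unlike the real error term. It recovered 54% of 2-fold effects of retinoic acid and 60% of 2-fold effects of the line. There were no replicate arrays, so p-values and SE rest on how far each gene departs from additive effects, pooled with a prior from all genes. They do not measure the spread between cultures, and the number of arrays limits the precision. All 31 measured members could be named, with the 3 largest effects of each further list. Members, lists and tests were chosen with earlier results of these data known. Alternatives were dropping the filter, raising it to log2 7, quantile normalization, averaging a gene's probe sets, a variance prior with a mean trend, a 1.5-fold threshold, means in place of medians, and a sterol branch with Stard4 and without Ggps1.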

Additional observations from a re-analysis of the deposited data

Results flagged for a closer look

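In 2 genes of sterol transport, each chosen for lying at least log2 0.5 to opposite sides in the groups compared, single arrays moved in opposite directions, and the difference was not tested. Vldlr, a lipoprotein receptor whose values were seen before it was chosen, had log2 signals of 8.65 in the Ctcfl line and 7.40 in wild-type cells in retinoic acid. Without retinoic acid Vldlr had 7.83 in the Ctcfl line and 8.86 in wild-type cells. It was 1.77-fold higher with retinoic acid in the Ctcfl line and 2.74-fold lower in wild type, a difference of log2 2.28. Between the lines Vldlr was higher in the Ctcfl line by log2 1.25 in retinoic acid and lower by log2 -1.03 in undifferentiated cells. Abca1 was higher in the Ctcfl line by log2 0.72 in retinoic acid and lower by log2 -0.62 in undifferentiated cells, a difference of log2 1.34. Of the 31 synthesis genes and regulators, 0 met that limit, and 13 had responses to retinoic acid of opposite sign in the 2 lines. The shares of all genes were not counted, so neither count is read as a trait of the members.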

How the results depend on the processing

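No test within a line or within a state was possible because each group had 1 array. The additive limma fit already pairs the arrays by line for retinoic acid and by state for the line. Leaving an array out left that fit no residual degree of freedom. Of the checks on counts of members and branch medians, 133 stayed as reported and 12 moved. The other filters could not change the values of members, and the mean of probe sets could change only Scap. Part of the unchanged checks was therefore fixed in advance. With the variance prior that follows mean expression, 1 member was called lower with retinoic acid in place of 0. With quantile normalization 0 members in place of 1 were at least 2-fold higher in the Ctcfl line in undifferentiated cells. A 1.5-fold threshold gave 1 member higher with retinoic acid in the Ctcfl line and 3 in wild type, 3 lower in the Ctcfl line in retinoic acid, and 3 higher and 1 lower there in undifferentiated cells. Of the medians, those of the line in undifferentiated cells moved. For the sterol branch the value was log2 -0.06 as a median, 0.12 as a mean and 0.063 with Stard4 and without Ggps1. For the fatty acid branch it was log2 -0.14 as a median and -0.021 as a mean. Sterol minus fatty acid branch was log2 0.08 there, and 0.20 with Stard4 and without Ggps1, and in the difference of responses it was -0.11 with medians and -0.24 with means. The fatty acid median for retinoic acid in the Ctcfl line lay within log2 0.01 of 0 and changed sign with quantile normalization and as a mean. With quantile normalization Agpat2 and Me1 of the further genes also passed for retinoic acid, lower by log2 -0.82 and -0.77. All members had signals of at least log2 8.17, against medians up to 4.78 for olfactory receptor genes. The cause of these changes was not tested. The checks of the early and late sterol genes and of the further named genes were chosen after seeing the data.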
